A study of Mus musculus with 24 samples.

Results

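Short single-gene coding promoters were examined in germinal center (GC) B cells: autosomal ATAC-seq peaks under 1000 bp long that contain a transcription start site (TSS) of exactly 1 protein-coding gene in GENCODE on mm10 (GRCm38). The rule found 1994 such peaks among the 65483 consensus peaks, over 1891 genes, and 94 of these genes held more than 1 of them. ATAC-seq maps open chromatin with a transposase that cuts accessible DNA and inserts sequencing adapters, and each value counts the sequenced fragments over a peak. GC B cells were enriched on PNA beads and sorted from the spleens of 8-week-old C57BL/6J mice 10 days after immunization with sheep red blood cells (SRBC), with 1 library per mouse. All mice carried 1 copy of Cg1Cre, which expresses Cre recombinase from the Ighg1 locus in B cells activated to enter the GC. The 4 WT mice (Cg1Cre+/-) had no floxed allele, the 4 C mice (C_het_KO) were Crebbp fl/+, the 4 K mice (K_het_KO) were Kmt2d fl/+ and the 5 CK mice (CK_het_DKO) were Crebbp fl/+ and Kmt2d fl/+, so that each mutant kept 1 intact copy of the targeted gene. Each mutant genotype was compared with the same WT mice, so the 3 comparisons share their controls.

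A promoter is the stretch of DNA around a TSS where RNA polymerase II assembles, and it is normally depleted of nucleosomes in cells that use it. Promoters of housekeeping genes lie mostly in CpG islands, runs of GC-rich DNA in which CpG dinucleotides have not been eroded by methylation, and they tend to give wide ATAC-seq peaks. Short peaks can lie at promoters that are barely open, at tissue-restricted genes and at alternative starts inside a gene, where a promoter and an enhancer can look alike. CREBBP acetylates histones at enhancers and promoters, and KMT2D methylates histone H3 at lysine 4, mainly at enhancers. Both are tumor suppressors often mutated in lymphomas that arise from GC B cells.

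The label was checked against the annotation. Of the 1994 peaks, 1097 (55%) held the 5′ end of the gene and 897 held only starts further downstream, and 1201 held the start of a principal transcript. In 471 peaks the starts belonged only to transcripts of the coding gene that are not themselves annotated as protein-coding, such as retained introns, so these are coding-gene starts rather than starts of coding transcripts. The peaks were from 206 bp to just under the limit in length, with a median of 733 bp, a GC content of 56.5% and a CpG observed over expected ratio of 0.483, where the ratio compares the CpGs present with those that the base composition predicts. The 9979 broad single-gene coding promoters, which meet the same rule at 1000 bp or more, had a median length of 1604 bp, a GC content of 56.6% and a CpG ratio of 0.660, and 79.1% of them held the 5′ end of the gene. The 50546 autosomal peaks with no coding start had a median GC content of 46.8% and a CpG ratio of 0.211.

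The sequences of 9 promoters are given from 250 bases before to 50 bases after the annotated start, in the direction of transcription, read from GRCm38. Kdelc2, Cep126, Zfp286 and B4galt2 are shown because they gained accessibility, Myo1f, Cmtm7, Tns1 and Manba because they lost it, and Khsrp because its peak was the most accessible per length. Capitals mark each match, on either strand, to 1 of 10 motifs that were searched: TATAAA (bound by TBP), CCAAT (bound by NF-Y), GGGCGG (bound by SP-family factors), CCGGAAG (ETS type), TGACGTCA (cAMP response element), GCGCATGC (NRF1 type), AAGATGGC (YY1 type), GAGGAAGT (PU.1 type), ATGCAAAT (octamer) and TGANTCA (AP-1 type).
Kdelc2 (chr9:53383775-53384074, plus strand): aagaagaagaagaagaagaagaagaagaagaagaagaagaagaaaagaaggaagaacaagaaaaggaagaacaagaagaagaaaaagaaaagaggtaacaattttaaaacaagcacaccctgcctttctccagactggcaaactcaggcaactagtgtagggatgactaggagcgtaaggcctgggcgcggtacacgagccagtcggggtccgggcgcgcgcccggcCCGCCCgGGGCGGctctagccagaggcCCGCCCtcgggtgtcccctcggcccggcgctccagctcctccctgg
Cep126 (chr9:8134245-8134544, minus strand): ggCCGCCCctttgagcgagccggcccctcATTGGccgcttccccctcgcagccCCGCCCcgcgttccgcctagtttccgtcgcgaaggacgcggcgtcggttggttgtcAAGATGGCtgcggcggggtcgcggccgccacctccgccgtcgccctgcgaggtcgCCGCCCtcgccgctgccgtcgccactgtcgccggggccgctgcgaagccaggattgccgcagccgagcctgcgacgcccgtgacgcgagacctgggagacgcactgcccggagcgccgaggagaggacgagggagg
Zfp286 (chr11:62789413-62789712, minus strand): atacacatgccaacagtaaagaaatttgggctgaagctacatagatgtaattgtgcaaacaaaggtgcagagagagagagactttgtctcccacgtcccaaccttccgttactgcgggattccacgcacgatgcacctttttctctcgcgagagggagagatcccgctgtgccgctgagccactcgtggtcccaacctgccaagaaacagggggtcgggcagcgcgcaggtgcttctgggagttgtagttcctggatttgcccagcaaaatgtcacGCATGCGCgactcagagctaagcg
B4galt2 (chr4:117883063-117883362, minus strand): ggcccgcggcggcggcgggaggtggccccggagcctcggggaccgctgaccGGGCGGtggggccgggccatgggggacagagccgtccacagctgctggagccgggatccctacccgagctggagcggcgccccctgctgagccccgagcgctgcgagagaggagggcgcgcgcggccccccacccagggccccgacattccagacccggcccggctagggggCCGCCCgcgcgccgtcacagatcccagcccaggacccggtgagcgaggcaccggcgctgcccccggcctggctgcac
Myo1f (chr17:33555457-33555756, plus strand): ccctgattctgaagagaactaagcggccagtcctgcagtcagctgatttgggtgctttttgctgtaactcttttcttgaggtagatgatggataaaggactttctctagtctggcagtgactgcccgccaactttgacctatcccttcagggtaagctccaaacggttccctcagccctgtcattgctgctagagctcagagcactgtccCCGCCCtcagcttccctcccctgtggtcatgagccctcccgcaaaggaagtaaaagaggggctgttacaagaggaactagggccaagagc
Cmtm7 (chr9:114775402-114775701, minus strand): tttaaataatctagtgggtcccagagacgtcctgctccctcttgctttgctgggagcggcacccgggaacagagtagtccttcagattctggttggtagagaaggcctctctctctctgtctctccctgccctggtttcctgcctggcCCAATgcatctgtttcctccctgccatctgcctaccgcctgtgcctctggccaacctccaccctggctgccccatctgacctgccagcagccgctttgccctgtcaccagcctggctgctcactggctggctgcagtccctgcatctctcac
Tns1 (chr1:73940965-73941264, minus strand): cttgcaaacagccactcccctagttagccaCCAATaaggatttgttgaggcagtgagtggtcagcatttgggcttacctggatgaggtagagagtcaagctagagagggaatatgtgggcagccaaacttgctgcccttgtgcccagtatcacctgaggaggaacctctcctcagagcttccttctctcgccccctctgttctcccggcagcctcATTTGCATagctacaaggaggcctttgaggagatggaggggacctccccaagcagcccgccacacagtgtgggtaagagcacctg
Manba (chr3:135516900-135517199, plus strand): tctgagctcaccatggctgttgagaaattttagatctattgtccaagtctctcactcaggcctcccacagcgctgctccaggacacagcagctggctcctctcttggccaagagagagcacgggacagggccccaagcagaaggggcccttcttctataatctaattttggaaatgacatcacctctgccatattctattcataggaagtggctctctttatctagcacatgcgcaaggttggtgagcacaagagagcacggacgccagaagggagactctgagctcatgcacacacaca
Khsrp (chr17:57031439-57031738, minus strand): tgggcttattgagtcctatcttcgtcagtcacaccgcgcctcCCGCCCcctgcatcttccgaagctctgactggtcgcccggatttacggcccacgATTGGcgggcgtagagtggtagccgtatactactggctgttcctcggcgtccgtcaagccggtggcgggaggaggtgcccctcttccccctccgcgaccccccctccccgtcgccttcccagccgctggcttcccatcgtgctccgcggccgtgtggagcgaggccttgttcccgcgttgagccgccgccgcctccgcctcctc

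The windows of the gained promoters held 18 CpGs in Kdelc2, 47 in Cep126, 17 in Zfp286 and 36 in B4galt2. Those of the lost promoters held 5 in Myo1f, 5 in Cmtm7, 3 in Tns1 and 5 in Manba. The Khsrp window held 33.

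Depth ranged from 17483706 to 21857738 fragments in peaks per library, of which the short promoters took between 2.01% and 2.15%. The median value of a short promoter was 67 fragments per library, all 1994 passed the filter on low counts, and the least covered held 50 fragments over the 17 libraries. The mice were described as female, but 11 peaks on the Y chromosome held between 1421 and 1742 fragments in WT mice 1 and 2, C mice 1 and 2, K mice 1, 3 and 4 and CK mice 1 and 4, and at most 1 fragment in the other 8 mice. No short promoter lies on a sex chromosome, and counts with this signal in the model are given beside the results. Start peaks of all 18 GC B cell markers were present, while 11 of 20 T cell markers, with Cd3e, Cd4 and Cd8a among them, and 13 of 20 myeloid markers, with Itgam and Lyz2 among them, had no start peak. The summed start peaks of the other T cell markers lay between 299 and 313 CPM in WT and between 270.3 and 291 CPM in CK, and those of the other myeloid markers between 168 and 193 CPM in WT and between 187 and 216 CPM in CK. Of these start peaks 3 of 10 T cell marker peaks were lost and 1 of 7 myeloid marker peaks was gained in CK. Over all peaks 3.3% were lost and 3.54% gained in CK. Start peaks of naive and memory B cell markers (2 of 18) and of GC B cell markers (1 of 22) were also lost. The part of other cell types in the results was not tested.

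Short promoters were faintly open as a class. Their median level in WT was 4.61 CPM per kb, where CPM is the fragment count scaled to library size with TMM factors and the division by peak length makes peaks comparable, against 22.6 for broad promoters and 3.96 for peaks with no coding start. A minority stood far above this. The most accessible was the start of Khsrp, which encodes a KH-domain RNA-binding splicing and decay factor, at 163 CPM per kb over the 17 mice. It was followed by Hdac4, a class IIa histone deacetylase, at 117, Hsd17b12, a fatty acid elongation enzyme, at 107, and Sel1l, a component of the ER-associated degradation complex, and Bmf, a BH3-only activator of apoptosis, both at 101. Sel1l and Bmf differed by less than the spread between mice. The Khsrp peak read 161, 159, 161 and 166 CPM among WT mice, 151, 153, 153 and 159 among C mice, 161, 159, 155 and 162 among K mice and 166, 147, 153, 161 and 160.1 among CK mice. The ranges of all genotypes overlapped, and the log2 fold change in C was -0.07 ± 0.039 (SE, edgeR adjusted p = 0.633). At the other end, downstream starts of Elmod1, Hspa4 and Dmtf1 had means of 0.672, 0.713 and 0.761 CPM per kb, where a library holds only a few fragments.

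In CK GC B cells short promoters opened more often than they closed. Of the 1994 peaks, 190 (9.53%) gained and 28 (1.40%) lost accessibility against WT by edgeR's quasi-likelihood test (Benjamini-Hochberg adjusted p over all peaks below 0.01), while over all 65483 peaks 3.54% gained and 3.3% lost. The median log2 fold change was 0.12 for short promoters, 0.057 for broad promoters, -0.027 for peaks with no coding start and 0.0029 over all peaks. Broad promoters gained in 10.2% and lost in 1.38% of cases, close to the shares of the short ones. In 325 short promoters (16.3%) every CK mouse lay above every WT mouse and in 63 (3.16%) every CK mouse lay below, against 6.59% and 6.39% of all peaks. The changes called were moderate, with a median size of 0.81 on the log2 scale among the gained and 0.69 among the lost, and 50 of the 190 exceeded 1. In these bulk libraries a change in the share of cells with an open promoter and a change in opening per cell cannot be told apart.

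The normalization and single mice bear on these counts. When counts were also offset by GC content in 20 bins, 95 short promoters (4.76%) gained and 54 (2.71%) lost, against 2.58% and 3.38% of all peaks in the same fit, so that the share of gains among the calls fell from 87.2% to 63.8%, and of the 190 and 28 calls 93 and 25 were made again. The median log2 fold change was then 0.061 for short promoters and 0.0046 over all peaks. The gained count was 84 without WT mouse 4, 111 without WT mouse 3, 119 without CK mouse 1 and 120 without WT mouse 2, and the lost count was 16 without WT mouse 4. With the Y chromosome signal as a covariate 208 gained and 40 lost, and in the 8 mice without that signal, 2 of them WT and 3 CK, 27 gained and 8 lost.

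**Figure D1:**
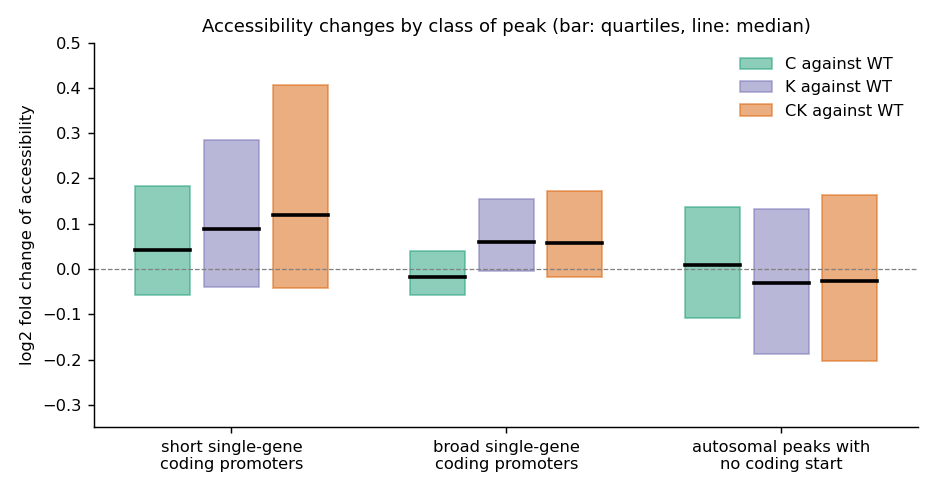
Log2 fold change of accessibility (y axis) in C, K and CK against WT for 1994 short promoters, 9979 broad promoters and 50546 autosomal peaks with no coding start. Boxes span the lower to the upper quartile over peaks and black lines mark medians, which in CK were 0.12, 0.057 and -0.027.

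The gained promoter with the lowest adjusted p belonged to Kdelc2 (chr9:53383943-53384851, 5′ end of the gene), which encodes an endoplasmic reticulum glucosyltransferase. Its peak read 2.87, 2.82, 2.72 and 3.43 CPM among WT mice, 3.92, 3.07, 3.79 and 4.19 among C mice, 5.52, 5.55, 3.82 and 5.58 among K mice and 7.98, 7.05, 5.54, 6.57 and 8.07 among CK mice. All CK mice lay above all WT and C mice, and the K mice ran from within the C range to the lower edge of the CK range. The log2 fold change in CK was 1.25 ± 0.14 (SE, edgeR adjusted p = 6.05e-06) and that in K 0.79 ± 0.15 (edgeR adjusted p = 0.0036).

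Cep126, which encodes a centrosomal protein needed for ciliogenesis, rose in the same order of genotypes (chr9:8133979-8134938, 5′ end). The values were 4.26, 4.80, 5.16 and 4.21 CPM among WT mice, 5.29, 4.83, 5.46 and 4.94 among C mice, 7.69, 6.68, 6.54 and 6.69 among K mice and 8.76, 8.61, 7.76, 8.77 and 7.89 among CK mice. Every CK mouse was higher than every mouse of the other 3 genotypes, and the K mice were all above WT and C. The log2 fold change was 0.86 ± 0.10 in CK (SE, edgeR adjusted p = 7.27e-06) and 0.58 ± 0.11 in K (edgeR adjusted p = 0.00269), and that in C, 0.15 ± 0.11, did not pass (edgeR adjusted p = 0.737).

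Bbs7, a subunit of the BBSome that carries membrane proteins to cilia, gained at the 5′ end of the gene (chr3:36612916-36613812). Its peak read 20.5, 17.3, 17.7 and 17.4 CPM among WT mice, 22.8, 22.6, 20.7 and 22.2 among C mice, 25.3, 24.2, 24.4 and 24.1 among K mice and 25.6, 23.5, 25.1, 28.6 and 27.6 among CK mice. WT mouse 1 was the highest of its group, and all 13 mutant mice lay above it. The log2 fold change was 0.52 ± 0.068 in CK (SE, edgeR adjusted p = 2.71e-05) and 0.42 ± 0.071 in K (edgeR adjusted p = 0.00141).

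Zfp286, a zinc finger gene, read 5.05, 3.81, 3.84 and 3.71 CPM among WT mice, 6.18, 5.64, 5.86 and 6.11 among C mice, 6.69, 6.17, 6.44 and 6.55 among K mice and 7.53, 9.05, 8.61, 7.52 and 6.51 among CK mice at chr11:62788847-62789820. No mutant mouse was as low as any WT mouse, with a log2 fold change of 0.94 ± 0.11 in CK (SE, edgeR adjusted p = 1.29e-05). Prelid2, at chr18:41950810-41951452, read 0.851, 0.888, 1.22 and 1.27 CPM among WT mice, 1.89, 2.08, 2.22 and 2.65 among C mice, 1.17, 1.59, 1.94 and 2.17 among K mice and 2.71, 3.28, 3.36, 2.64 and 3.51 among CK mice. All CK mice lay above all WT and K mice, CK mouse 4 lay just below the highest C mouse, and the log2 fold change was 1.54 ± 0.19 in CK (SE, edgeR adjusted p = 1.30e-05).

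Vash1 and Fzd3 also gained. Vash1 encodes a tubulin carboxypeptidase and changed by 0.96 ± 0.13 (SE, edgeR adjusted p = 4.84e-05). Fzd3, a Wnt receptor, changed by 0.73 ± 0.11 (edgeR adjusted p = 6.89e-05). Both held the 5′ end of the gene in a peak with between 69.2% and 71.4% GC, and in each the 5 CK mice lay above the 4 WT mice.

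The strongest loss by adjusted p lay at the 5′ end of Myo1f (chr17:33555383-33555947), an unconventional myosin of blood cells. It read 13.4, 11.9, 12.6 and 12.7 CPM among WT mice, 10.1, 10.7, 10.7 and 10.99 among C mice, 8.01, 6.17, 8.37 and 6.78 among K mice and 7.83, 6.41, 7.81, 6.57 and 5.30 among CK mice. All 13 mutant mice lay below all WT mice, K and CK overlapped, and C lay between. The log2 fold change was -0.89 ± 0.11 in CK (SE, edgeR adjusted p = 1.04e-05) and -0.78 ± 0.11 in K (edgeR adjusted p = 4.05e-04).

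Cmtm7, a MARVEL-domain membrane protein of B cells, lost a downstream start 6405 bp from the 5′ end of the gene (chr9:114775378-114775761). The start in this peak belongs to a transcript not annotated as protein-coding. That peak read 6.39, 5.95, 6.37 and 7.59 CPM among WT mice, 6.28, 5.23, 6.22 and 6.05 among C mice, 3.13, 3.74, 4.13 and 2.54 among K mice and 2.17, 3.72, 3.41, 3.34 and 3.11 among CK mice. The K and CK mice together lay below all WT and C mice, and the log2 fold change in CK was -1.06 ± 0.14 (SE, edgeR adjusted p = 2.92e-05). A start 183435 bp into Tns1, which encodes the focal adhesion protein tensin 1, read 4.36, 4.23, 4.92 and 5.09 CPM among WT mice, 3.02, 3.47, 2.68 and 3.24 among C mice, 3.34, 2.78, 3.30 and 3.88 among K mice and 2.51, 1.78, 2.84, 2.39 and 2.42 among CK mice (chr1:73940545-73941299). There all 13 mutant mice lay below the WT mice, and the log2 fold change in CK was -0.96 ± 0.13 (SE, edgeR adjusted p = 5.05e-05).

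Among the other lost starts, that of Sh2d1b1, which encodes an adaptor of SLAM-family receptors, fell by 1.37 ± 0.22 on the log2 scale (SE, edgeR adjusted p = 1.83e-04). A start inside Il4 (chr11:53616922-53617770), the T cell cytokine gene, read 4.79, 5.59, 4.87 and 5.48 CPM among WT mice, 4.25, 5.28, 5.51 and 4.94 among C mice, 3.71, 3.85, 3.77 and 3.69 among K mice and 3.40, 2.80, 3.31, 2.89 and 3.69 among CK mice. All K and CK mice were below all WT mice, with a log2 fold change of -0.69 ± 0.11 in CK (SE, edgeR adjusted p = 2.67e-04). The summed start peaks of T cell markers lay between 299 and 313 CPM in WT and between 270.3 and 291 CPM in CK. In C they lay between 274 and 300 CPM and in K between 268 and 310 CPM. Their part in this loss was not tested. A start of Cux1, a homeobox factor, changed by -1.02 ± 0.17 (edgeR adjusted p = 3.50e-04). That of Slc2a6, a sugar transporter of the GLUT family, changed by -0.67 ± 0.11 (edgeR adjusted p = 2.10e-04). That of Ttyh3, an anion channel of the tweety family, changed by -0.45 ± 0.075 (edgeR adjusted p = 2.73e-04). In each of these 3 the CK mice lay below all WT mice.

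**Figure D2:**
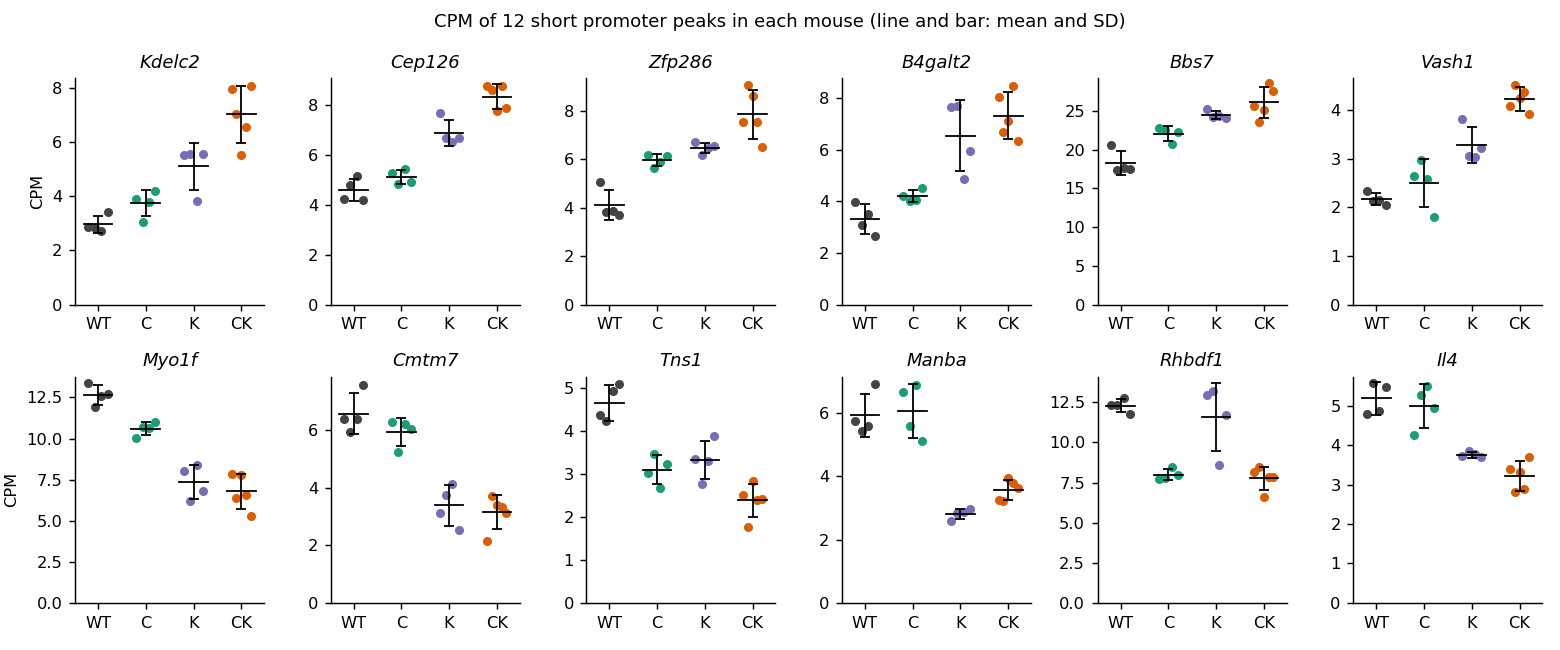
Accessibility in CPM (y axis, from 0) of 6 gained (top) and 6 lost (bottom) short promoters in each mouse of the 4 genotypes (x axis). Points are mice, lines are means and bars are SD, and in the top row every CK mouse lies above every WT mouse while in the bottom row every CK mouse lies below.

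In K mice, 15 short promoters gained and 8 lost accessibility against the same WT mice, which is 0.752% and 0.401% of them, against 0.647% gained and 0.828% lost over all peaks. Broad promoters gained in 2.21% and lost in 0.261% of cases. The median log2 fold change was 0.087 for short promoters and 0.0015 over all peaks, and with GC bin offsets it was 0.031 and 0.0027. Every K mouse lay above every WT mouse at 217 short promoters (10.9%) and below at 64 (3.21%), against 5.42% and 5.87% of all peaks. B4galt2, which encodes a galactosyltransferase of the Golgi, gained at a downstream principal start (chr4:117882772-117883414) with values of 3.99, 3.08, 3.51 and 2.66 CPM among WT mice, 4.20, 4.02, 4.04 and 4.51 among C mice, 7.64, 7.70, 4.87 and 5.95 among K mice and 8.02, 6.68, 7.10, 8.47 and 6.34 among CK mice. All K and CK mice lay above all WT and C mice, and K and CK overlapped. The log2 fold change was 0.97 ± 0.15 in K (SE, edgeR adjusted p = 6.53e-04) and 1.14 ± 0.14 in CK (edgeR adjusted p = 1.48e-05). Npw, encoding neuropeptide W, changed by 0.55 ± 0.10 in K (edgeR adjusted p = 0.00186). Slc9a3r2, a scaffold of membrane transporters, changed by 0.68 ± 0.12 (edgeR adjusted p = 0.00196). Large2, a glycosyltransferase that acts on dystroglycan, changed by 0.66 ± 0.12 (edgeR adjusted p = 0.00239). The gained count in K was 4 without K mouse 1, 4 without WT mouse 3 and 5 without WT mouse 4, and with GC bin offsets 7 (0.351%) gained and 12 (0.602%) lost, against 0.367% and 0.736% of all peaks, so that gains made up 36.8% of the calls in place of 65.2%. Npw did not pass without K mouse 1 (0.51) or WT mouse 4 (0.49) or with GC bin offsets (0.39), Slc9a3r2 without K mouse 1 (0.64), WT mouse 3 (0.63) or WT mouse 4 (0.64), and Large2 without WT mouse 3 (0.63) or WT mouse 4 (0.57) or with GC bin offsets (0.51).

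The lowest adjusted p in K was at a start 31539 bp into Manba, a lysosomal mannosidase (chr3:135516624-135517453). It read 5.75, 5.43, 5.58 and 6.92 CPM among WT mice, 6.65, 5.59, 6.88 and 5.10 among C mice, 2.60, 2.83, 2.88 and 2.95 among K mice and 3.25, 3.23, 3.93, 3.79 and 3.63 among CK mice. The K mice lay below all other mice, the CK mice lay between K and the WT and C mice, and the WT and C ranges overlapped. The log2 fold change was -1.07 ± 0.13 in K (SE, edgeR adjusted p = 5.32e-05) and -0.73 ± 0.12 in CK (edgeR adjusted p = 2.01e-04). The start of Tas2r138, a bitter taste receptor, read 3.14, 2.77, 2.81 and 2.82 CPM among WT mice, 4.06, 3.97, 4.45 and 4.25 among C mice, 1.65, 0.793, 1.36 and 1.75 among K mice and 1.72, 2.15, 2.65, 1.74 and 2.36 among CK mice (chr6:40613294-40614151). K and CK mice lay below WT mice and C mice lay above them, and the log2 fold change was -1.04 ± 0.18 in K (SE, edgeR adjusted p = 0.00218) and 0.53 ± 0.16 in C, which did not pass (edgeR adjusted p = 0.186). A start 36945 bp into Sema4d, the semaphorin CD100, changed by -0.34 ± 0.067 in K (SE, edgeR adjusted p = 0.00389) and did not pass without WT mouse 1 or 4 or K mouse 1, 2 or 3, with values between -0.35 and -0.30. The lost count in K was 4 without K mouse 1, 5 without WT mouse 3 and 4 without WT mouse 4.

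In C mice 0 short promoters gained and 1 lost accessibility in edgeR's test, against 0.0596% gained and 0.101% lost over all peaks. An unadjusted p under 0.05 was reached by 212 short promoters (10.6%), against 8.90% of all peaks, and DESeq2 called 4 gained and 1 lost. The median log2 fold change was 0.041 for short promoters and -0.017 for broad ones. Every C mouse lay above every WT mouse at 99 short promoters (4.96%) and below at 39 (1.96%), against 2.89% and 2.77% of all peaks. The lost peak lay 4983 bp into Rhbdf1, which encodes the inactive rhomboid iRhom1 (chr11:32216748-32217505), and read 12.3, 12.3, 12.7 and 11.7 CPM among WT mice, 7.74, 7.76, 8.49 and 7.96 among C mice, 12.9, 13.2, 8.58 and 11.7 among K mice and 8.17, 8.45, 6.58, 7.82 and 7.84 among CK mice. The C and CK mice lay below all WT mice, and K mouse 3 lay near them while the other K mice lay near WT. Its log2 fold change was -0.62 ± 0.11 in C (SE, edgeR adjusted p = 0.00657) and -0.66 ± 0.11 in CK (edgeR adjusted p = 1.88e-04). This peak lies in 1 of the 6 windows of 5 Mb that hold at least 5 of the peaks called in C, and without the 47 short promoters in such windows 0 were lost in C. It did not pass when any 1 of the WT or C mice was left out, which gave 0 losses, and 1 short promoter gained without K mouse 1 or K mouse 3.

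CK was also set against each single mutant. Against C, 23 short promoters (1.15%) gained and 6 (0.301%) lost accessibility in CK, where 0.907% and 0.77% of all peaks did. Broad promoters gained in 3.70% and lost in 0.190% of cases in this comparison. Kdelc2, Cep126 and Bean1 led the gains of the short promoters. Bean1, named for its expression in brain and its binding of Nedd4, read 1.81, 1.41, 1.12 and 1.16 CPM among WT mice, 1.42, 1.35, 0.809 and 1.06 among C mice, 2.87, 1.87, 2.46 and 1.71 among K mice and 3.35, 2.37, 2.93, 2.74 and 2.19 among CK mice (chr8:104170331-104171072), with a log2 difference of 1.22 ± 0.20 from C (SE, edgeR adjusted p = 0.00113). The CK mice were all above the C and WT mice and overlapped K. Manba, Cmtm7 and Tas2r138 led the losses. The 29 calls were 9 without C mouse 4, 13 without CK mouse 1, 15 without C mouse 2, and 13 with GC bin offsets. Against K, 0 short promoters were called in edgeR's test (0.00916% of all peaks were), 173 had an unadjusted p under 0.05 (8.68% against 7.35% of all peaks) and DESeq2 called 1, as did edgeR without K mouse 3. The test of whether CK departed from C and K changes added on the log2 scale called 0 (0.0107% of all peaks were called), 71 had an unadjusted p under 0.05 (3.56% against 3.73% of all peaks) and DESeq2 called 0. A joint test of any difference among the 4 genotypes called 143 short promoters (7.17%), 10.9% of broad promoters and 5.62% of all peaks. The 143 became 73 without WT mouse 4, 81 without WT mouse 3, 89 without CK mouse 1 and 78 with GC bin offsets. Among the 190 promoters gained in CK the median log2 fold change was 0.31 in C, 0.52 in K and 0.81 in CK, and among the 28 lost it was -0.22, -0.47 and -0.69, values that the choice by CK and the shared WT mice partly fix.

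Each mouse was also described by the median over short promoters of its log2 difference from the WT mean. This median averaged 0.00086 ± 0.011 over the 4 WT mice, 0.035 ± 0.011 over the 4 C mice, 0.077 ± 0.021 over the 4 K mice and 0.10 ± 0.0093 over the 5 CK mice (errors are SD). The highest WT mouse was at 0.012, the C mice lay between 0.025 and 0.046, the K mice between 0.058 and 0.11 and the CK mice between 0.093 and 0.12, so the WT, C and K ranges did not overlap and those of K and CK did. Each WT mouse is part of the WT mean, which draws the WT values toward 0 and narrows their range. The order of the genotypes depended on the normalization, since with GC bin offsets the fitted medians were 0.040 in C, 0.031 in K and 0.061 in CK. Over broad promoters the WT mice spread from -0.040 to 0.040 and overlapped the CK mice, which lay between 0.017 and 0.11.

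In the fit with TMM factors the changes in CK ran in order of CpG content. In the 665 short promoters richest in CpGs, with a ratio of at least 0.621, 117 (17.6%) gained and 0 lost, with a median log2 fold change of 0.30. In the middle group 62 of 664 gained and 3 lost, with a median of 0.14. In the poorest group, with a ratio under 0.332, 11 of 665 (1.65%) gained and 25 (3.76%) lost, with a median of -0.052. The same bounds applied to broad promoters gave gained shares of 13.2%, 7.69% and 1.68% and lost shares of 0.103%, 0.776% and 9.17% from rich to poor, and peaks with no coding start ran likewise from 13.8% to 1.13% gained and from 0.481% to 4.55% lost. With GC bin offsets the gained shares of short promoters from rich to poor were 6.62%, 6.33% and 1.35%, with medians of 0.16, 0.093 and -0.038, and their lost shares of 2.86%, 1.51% and 3.76% no longer ran in order. Broad promoters under these offsets gained in 6.30%, 5.40% and 1.77% and lost in 6.04%, 2.63% and 8.07% of cases, with medians of 0.00033, 0.014 and -0.052, so that neither their losses nor their medians ran in order of CpG content.

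**Figure D3:**
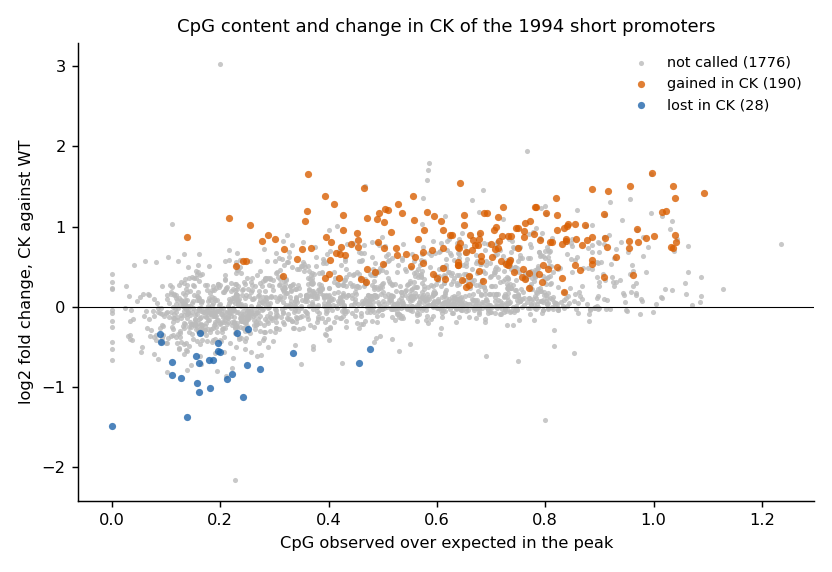
Log2 fold change in CK against WT (y axis) of each of the 1994 short promoters against the CpG observed over expected ratio of its peak (x axis). Points are peaks, orange those gained (190), blue those lost (28) and grey those not called (1776), and the blue points lie at low and medium CpG ratios while all but 11 of the orange ones lie at medium and high ratios.

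**Figure D4:**
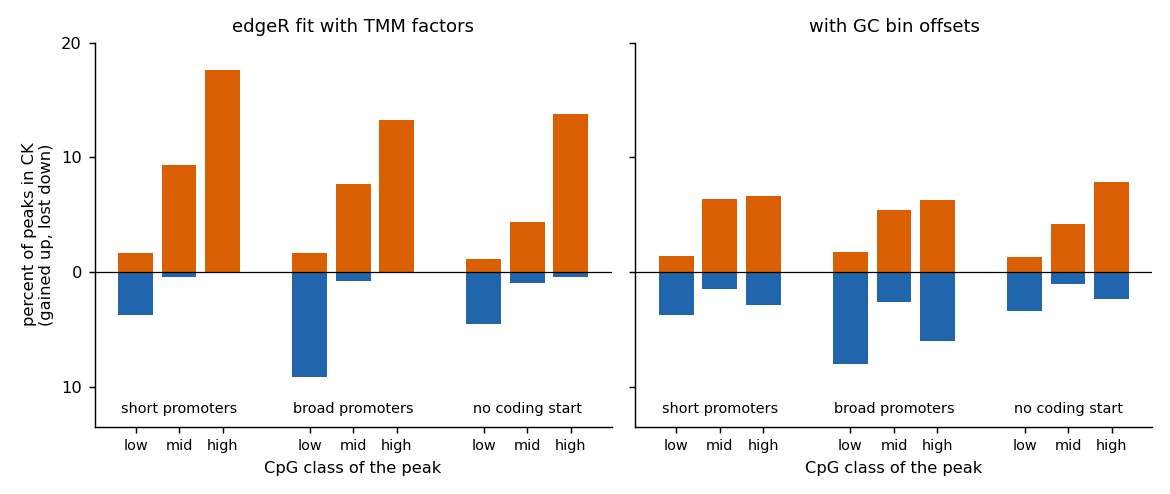
Percent of peaks gained (orange, upward) and lost (blue, downward) in CK against WT, by CpG class of the peak (x axis) for short promoters, broad promoters and autosomal peaks with no coding start. The left panel is the edgeR fit with TMM factors and the right panel the fit with GC bin offsets, where the gained share of CpG-rich short promoters was 6.62% in place of 17.6%.

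Other features of the called promoters followed. The 190 gained had a median CpG ratio of 0.678 and a GC content of 63.3%, the 28 lost 0.184 and 49%, and the 1776 not called 0.465 and 56.0%. The 5′ end of the gene lay in 135 of the gained (71.1%), 5 of the lost (17.9%) and 53.9% of those not called. Only transcripts not annotated as protein-coding started in 16 of the 190 gained, 12 of the 28 lost and 443 of those not called. Among them were the lost Cmtm7, Manba, Rhbdf1, Slc2a6, Ttyh3 and Kcnn4 and the gained Tet1, Cacna2d2 and Arhgef40. In K the same held for 5 of the 8 lost, with Sema4d among them, and 1 of the 15 gained. Gained promoters were faint in WT, with a median of 2.73 CPM per kb, and lost ones less so, at 9.09, while those not called had a median of 4.98. The same WT mice entered the calls, so selection partly fixes this contrast. By level over all mice, 74 of 665 gained in the lowest group, 80 of 664 in the middle group and 36 of 665 in the highest, with medians of 0.38, 0.14 and 0.033 on the log2 scale. By length, 47, 69 and 74 gained from the shortest to the longest, and 8, 11 and 9 lost. The median log2 fold changes ran the other way, at 0.19, 0.14 and 0.072. Median levels in WT rose with length, at 2.91, 4.54 and 14.2 CPM per kb. The 260 peaks just inside the length limit, of 950 bp or more, had a median log2 fold change of 0.080 in CK and 19.4 CPM per kb in WT, and the 351 otherwise eligible peaks that exceed the limit by less than 50 bp 0.064 and 19.3.

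The share of lost peaks was lower at gene 5′ ends than at downstream starts, a difference that was counted and not tested. The 5′ ends also had a higher median CpG ratio (0.596 against 0.328) and GC content (58.4% against 53.8%). The part of these features in the difference was not tested. Among the 1097 short promoters at a gene 5′ end 135 (12.3%) gained and 5 (0.456%) lost in CK, and among the 897 at downstream starts 55 (6.13%) gained and 23 (2.56%) lost. With GC bin offsets the lost shares were 2.01% and 3.57% and the gained shares 5.65% and 3.68%. For 21 of the 23 lost downstream starts, in 20 genes, another peak covered the 5′ end of the same gene, between 2007 and 215475 bp away. The lost starts had a median log2 fold change of -0.70 in CK, which their selection fixes, and the peaks at the 5′ ends 0.042, with a range from -0.23 to 0.55. Of these 5′ end peaks 1 was lost and 1 gained, and 16 of 21 values were above 0. Broad promoters made up 17 of the 21, and 69.2% of all broad promoters had a value above 0 in CK. With GC bin offsets the median of the 5′ ends was -0.054, 3 were lost and 0 gained, and 19 of the 21 downstream starts were lost. Of the 55 gained downstream starts, 22 had such a peak, and the medians were 0.64 at the downstream start, again fixed by selection, and 0.18 at the 5′ end, where 3 were gained and 0 lost. Over all 556 downstream starts with such a peak the 5′ end median was 0.058.

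Values at the 5′ ends of single genes follow. At Cmtm7 the 5′ end peak held 74.6 ± 1.78 CPM over WT mice (SD, n = 4) and 75.7 ± 2.17 over CK mice (SD, n = 5), with a log2 fold change of 0.022 ± 0.038 (SE), while the downstream start held 6.57 ± 0.704 and 3.15 ± 0.590. At Manba the 5′ end changed by 0.056 ± 0.052 (edgeR adjusted p = 0.517) and at Slc2a6 by -0.09 ± 0.052 (edgeR adjusted p = 0.259). At Tns1 the 5′ end gained, by 0.55 ± 0.11 (SE, edgeR adjusted p = 0.00152), while the downstream start lost, although with GC bin offsets the gain was 0.36 and did not pass (edgeR adjusted p = 0.0297). At Kcnn4, the calcium-activated potassium channel of lymphocytes, both fell, the downstream start by 0.52 ± 0.10 (edgeR adjusted p = 6.85e-04) and the 5′ end by 0.23 ± 0.046 on the log2 scale (SE, edgeR adjusted p = 0.00153).

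**Figure D5:**
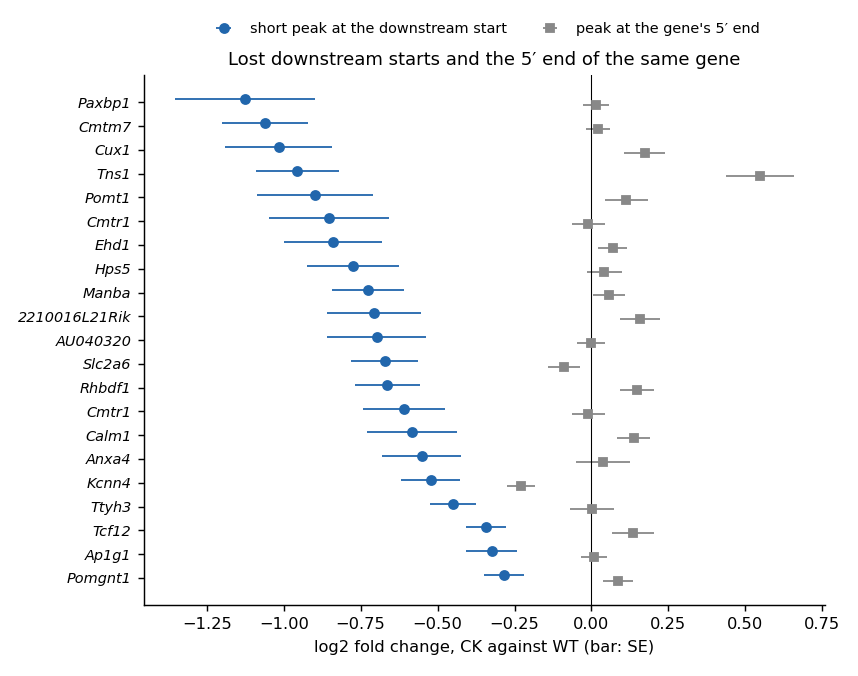
Log2 fold change in CK against WT (x axis, bars are SE) of 21 lost short peaks at downstream starts (blue circles) and of the peak at the 5′ end of the same gene (grey squares), 1 row per lost peak. The blue points were chosen for their loss, and the grey points lie between -0.23 and 0.55.

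Over all short promoters the GC box was the most frequent of the searched motifs, and it was more frequent in gained than in lost ones. GGGCGG occurred in 41.8% of short promoters, 63.9% of broad ones and 43.7% of the 20807 coding gene starts in the annotation. The latter are all gene 5′ ends, so the shares are of unlike starts. GGGCGG lay in 52.6% of short promoters with the gene 5′ end and in 28.7% of those with other starts. It was found in 60.5% of the 190 gained in CK and in 3 of the 28 lost. CCGGAAG, an ETS-type motif, was found in 7.52% of short and 15.3% of broad promoters against 11% of all gene starts, and in 5 of the 190 gained. GCGCATGC, the NRF1-type motif, was found in 2.46%, 4.95% and 3.45%, and in 10 of the 190 gained and 0 of the 28 lost. AAGATGGC, the YY1-type motif, was found in 1.96%, 3.75% and 2.93%, and TGACGTCA, the cAMP response element, in 1.2%, 3.54% and 2.43%. TATAAA was found in 8.48% of short promoters, 7.07% of broad ones and 12.7% of all gene starts, and CCAAT in 33.6%, 36.8% and 38.6%. Split by short promoters with the gene 5′ end and with other starts, the shares were 9.66% and 4.91% for CCGGAAG and 3.28% and 1.45% for GCGCATGC. They were 2.37% and 1.45% for AAGATGGC and 1.64% and 0.669% for TGACGTCA. For TATAAA they were 8.93% and 7.92%, and for CCAAT 36.6% and 29.9%.

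Motifs of factors active in B cells were searched as well. GAGGAAGT, the PU.1-type motif, which shares its GGAAG core with the ETS-type motif, was found in 4.26% of short promoters, 3.53% of broad ones and 3.26% of all gene starts, and in 2 of the 28 lost. ATGCAAAT, the octamer, was found in 2.36%, 1.65% and 1.59%, and the AP-1-type TGANTCA in 6.22%, 4.68% and 6.88%. The octamer occurred in 1 of the 28 lost, and 7 of the 190 gained held one. Both strands were searched, and a match is a description of letters, not a bound site. The median window held 10 CpGs in short promoters, 17 in the gained, 3.5 in the lost and 20 in broad ones.

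Few short promoters belonged to any one list of genes known from GC biology, and their counts stand beside 9.53% gained and 1.40% lost over all short promoters and 3.54% and 3.3% over all peaks. Of 40 genes of the light zone and T-cell help, 6 had a short promoter, and of their 7 peaks 0 gained and 0 lost in CK, with a median log2 fold change of -0.0083 against 0.12 over all short promoters and 0.0029 over all peaks. Slamf7, a SLAM-family receptor, had the highest level of these, at 27.2 CPM per kb, and changed by 0.33 ± 0.15 in CK (edgeR adjusted p = 0.132). None of 34 antigen presentation genes, 20 T cell markers or 76 ribosomal protein genes had one. Among 40 B-cell and GC transcription factors 10 genes had 11 peaks, of which 0 gained and 1 lost in CK. The lost one was a start 215475 bp into Tcf12, an E-protein partner in B-cell development, which read 22.2, 21.3, 21.7 and 23.8 CPM among WT mice, 19.9, 18.9, 19.6 and 19.96 among C mice, 17.03, 19.1, 18.7 and 20.1 among K mice and 17.7, 16.5, 17.3, 17.3 and 19.1 among CK mice. All 13 mutant mice lay below the WT mice there, and the log2 fold change in CK was -0.34 ± 0.065 (SE, edgeR adjusted p = 9.15e-04), which did not pass with GC bin offsets (-0.23). Mef2b, a GC factor, had a short promoter at a principal downstream start with 44.2 ± 3.21 CPM over WT mice (SD, n = 4) and 42.1 ± 3.65 over CK mice (SD, n = 5), at 43.5 CPM per kb, the most accessible of its list.

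Chromatin coactivators and repressors had 6 short promoters, of which 1 gained in CK, and apoptosis and survival genes had 2, of which 1 gained, numbers too small to set against the 9.53% gained over all short promoters. The first was Tet1, a dioxygenase that oxidizes methylated cytosine, at a downstream start, which read 2.29, 1.72, 1.59 and 1.44 CPM among WT mice, 2.36, 2.98, 2.78 and 2.39 among C mice, 2.07, 2.27, 2.09 and 2.45 among K mice and 3.54, 4.31, 3.17, 2.99 and 2.59 among CK mice. The CK and C mice lay above the WT mice, with a log2 fold change of 0.91 ± 0.16 in CK (SE, edgeR adjusted p = 5.04e-04). Dnmt3a, a DNA methyltransferase, had the highest level of the chromatin genes, at 16.6 CPM per kb, and changed by 0.16 ± 0.12 (edgeR adjusted p = 0.42). The second was Hrk, a BH3-only activator of cell death, at 0.62 ± 0.15 (edgeR adjusted p = 0.00471), which did not pass without WT mouse 2, 3 or 4 or CK mouse 1 or 3 (0.51 to 0.64) or with GC bin offsets (0.44). None was called in CK among the 4 short promoters of B-cell receptor signalling (Ptpn6 the highest at 28.7 CPM per kb), the 5 of the cell cycle (Mcm2 at 49.3), the 1 of DNA repair, the 2 of myeloid markers (Cd68 at 54.6), the 2 of plasma cell markers (Slamf7 and Jchain), the 4 of naive and memory B cell markers (Gpr183 at 13.4) and the 2 of GC B cell markers (Mef2b and Plxnb2). In K and C 0 short promoters of any of these 13 lists were called.

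Gene families were counted in the same way, beside 9.53% gained, 1.40% lost and a median of 0.12 over all short promoters. No list or family was tested against the other short promoters. Solute carriers had 40 short promoters, of which 6 gained and 1 lost in CK, with a median log2 fold change of 0.20. The gained include Slc9a3r2, a scaffold rather than a carrier, at 0.71 ± 0.11 (SE, edgeR adjusted p = 1.98e-04). Slc6a17, a vesicular amino acid transporter of neurons, changed by 0.77 ± 0.16 (SE, edgeR adjusted p = 0.0025) but did not pass without WT mouse 3 (0.67) or WT mouse 4 (0.71) or with GC bin offsets (0.58). Zinc finger genes named Zfp had 49, of which 6 gained and 0 lost, with a median of 0.13, and Zfp976 changed by 1.14 ± 0.19 (edgeR adjusted p = 3.14e-04). The most accessible of the zinc finger genes was Zfp574, at 94.2 CPM per kb, with a change of 0.0058 ± 0.039 (edgeR adjusted p = 0.945) in CK. Tmem genes had 24, of which 5 gained and 0 lost, with a median of 0.24, and Tmem150c changed by 0.84 ± 0.16 (edgeR adjusted p = 0.00101) and Tmem246 by 0.88 ± 0.17 (edgeR adjusted p = 7.90e-04). Potassium, calcium and sodium channels had 22, of which 2 gained and 1 lost, with a median of 0.14. Kcnk3, a background potassium channel, changed by 0.81 ± 0.20 (edgeR adjusted p = 0.00857), which did not pass when any of 10 single mice was left out (0.61 to 0.89) or with GC bin offsets (0.61), and Cacna2d2, an auxiliary calcium channel subunit, by 0.62 ± 0.12 (edgeR adjusted p = 0.00132).

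Small GTPase regulators had 28, of which 1 gained, Arhgef40, a guanine nucleotide exchange factor, at 0.82 ± 0.21 (SE, edgeR adjusted p = 0.00945), which did not pass when any 1 of 14 mice was left out (0.64 to 0.93) or in DESeq2. Interleukin and chemokine genes and receptors had 17, of which Il11ra1, the interleukin 11 receptor, gained (0.78 ± 0.18, edgeR adjusted p = 0.00382) and Il4 lost. Il11ra1 did not pass without CK mouse 2 (0.74), WT mouse 2 (0.76) or WT mouse 4 (0.58) or with GC bin offsets (0.59). Collagens and laminins had 4, of which Col8a2, a collagen of basement membranes, gained (0.76 ± 0.12, edgeR adjusted p = 1.15e-04). The Gpr and Adgr receptors had 7, of which 1 gained, and protein phosphatases had 4 with 0 called. Of all families, K called only Slc9a3r2, 1 Zfp gene and Col8a2, all gained, and C called 0.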

How the data were processed

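Per the file headers and the labels, the authors deposited raw fragment counts per consensus peak on mm10 from featureCounts 2.0.1, with a minimum overlap of 0.2 of the read, after alignment, duplicate removal and peak calling with the nf-core ATAC-seq pipeline on all 17 GC B cell libraries. All 17 columns were used. Transcription start sites came from GENCODE M21 on GRCm38, with all transcripts of a gene counted, and promoter windows and GC content from the GRCm38 sequence. Counts of all 65483 peaks (all above the filter of 10 counts in sum) were fitted in edgeR 4.0.16 (R 4.3.3) with TMM factors and 1 coefficient per genotype, tested by quasi-likelihood with Benjamini-Hochberg adjustment and called at an adjusted p under 0.01. The scripts were tested on simulated data. Members, gene lists (light zone and T-cell help, antigen presentation, transcription factors, receptor signalling, chromatin, cell cycle, DNA repair, apoptosis, markers of 5 cell types, and 10 gene families) and rules were chosen with earlier results of these data known. Named by rule were the 10 gained and 10 lost members in CK with the lowest adjusted p and separated mice, 5 and 5 in K and in C, 3 and 3 in CK against C, the most accessible and up to 2 called members of each list and direction, and the 5 most and 3 least accessible members. Kcnn4, named again for its pair of starts, and other members given outside these rules were chosen after their values were seen. Alternatives were DESeq2 1.42.0, other size factors, loess and GC bin offsets, filters, thresholds, the Y chromosome signal, the replicate number, other start definitions, a shorter length limit and leaving out each mouse. Sorted centroblast and centrocyte libraries were not analysed here. A few members that the rules select are not reported here.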

Additional observations from a re-analysis of the deposited data

Results flagged for a closer look

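The CPM values of 26 named promoters were examined in each genotype for a mouse far from the others (Dixon's test at 95%), and 7 of 104 groups held one, where chance flags about 1 in 20 groups. WT mouse 1 was high at Bbs7 (20.5 CPM, others 17.3 to 17.7), at Zfp286 (5.05 CPM, others 3.71 to 3.84), at Slc9a3r2 (6.01 CPM, others 4.36 to 4.6) and at Tas2r138 (3.14 CPM, others 2.77 to 2.82). At Cep126 K mouse 1 was high (7.69 CPM, others 6.54 to 6.69). At Kdelc2 K mouse 3 was low (3.82 CPM, others 5.52 to 5.58), and at Slc2a6 C mouse 2 was low (7.4 CPM, others 8.64 to 8.87). At the first 3 of these genes the WT value of mouse 1 lay toward the mutant mice.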

How the results depend on the processing

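Of the results for named promoters under other settings, 1695 kept their direction and side of the threshold, 88 no longer passed (25 of them in the mice without Y signal), 7 newly passed and 2 reversed, both at Zfp574 in CK (-0.19 with GC bin offsets and -0.18 with these and the replicate block). DESeq2 called 4 gained in C, 31 gained and 13 lost in K, 47 in CK against C and 1 in CK against K. GC bin offsets gave 7 gained in K, 95 gained and 54 lost in CK, 13 in CK against C and 78 over the 4 genotypes, with medians of 0.031 in K and 0.061 in CK. The Y signal as a covariate gave 3 gained in C and 52 in CK against C. Only mice without Y signal (chosen after seeing the data) gave 0 lost in C, 0 calls in K (0 gained, 0 lost), 27 gained and 8 lost in CK, 0 in CK against C and 7 over the 4 genotypes, from 8 mice in place of 17. Total counts gave a median of 0.068 in C, and a mean CPM of at least 1 a median of 0.10 in CK. An adjusted p under 0.05 gave 6 gained and 3 lost in C, 91 and 29 in K, 390 and 78 in CK, 141 in CK against C, 1 in CK against K and 346 over the 4 genotypes, and a fold above 1.5 left 9 gained in K and 18 lost in CK. Without windows rich in C calls 0 were lost in C. Gene-level starts only gave 0 lost in C, 3 in K and 5 in CK, with medians of 0.11 in K and 0.15 in CK, and starts of coding transcripts only gave 0 lost in C, 3 in K and 16 in CK, with medians of 0.11 and 0.15. A length under 800 bp gave 6 gained and 3 lost in K, 103 and 16 in CK, 12 in CK against C and 70 over the 4 genotypes, with medians of 0.069, 0.11 and 0.16 in C, K and CK, from fewer peaks. The causes of the other shifts were not tested.

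Leaving out each mouse gave 0 to 1 gains and 0 to 1 losses in C, 4 to 18 gains and 4 to 11 losses in K, 84 to 189 gained and 16 to 37 lost in CK, 9 to 34 called in CK against C, 0 to 1 in CK against K, 0 for departure from added changes and 73 to 138 over the 4 genotypes, with medians of 0.033 to 0.045 in C, 0.072 to 0.097 in K and 0.11 to 0.13 in CK. The labels give the replicate numbers no shared litter or day, and not every pair of mice with the same number and different genotypes had deviations correlated above 0.1, so the numbers were not taken as pairs. Such correlations exceeded 0.1 in 12 of 24 same-numbered pairs (-0.093 to 0.224, median 0.10) and in 15 of 84 other pairs (median -0.0087), and 6 of 16 mice correlated best with their own number. A bar that every pair must pass cannot exclude a shared litter or day. Pairs alike and unlike in Y signal were not counted apart. The replicate block gave 2 gained and 2 lost in C, 39 and 19 in K, 45 lost in CK beside 224 gained, and 64 in CK against C, and with GC bin offsets 4 and 2 in C, 21 lost in K, 125 gained and 76 lost in CK, with medians of 0.032 in K and 0.064 in CK. The median was 67 fragments per library, and p-values measure the spread between these mice.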

Other observations

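Among short promoters outside the rules for named genes, 2 stood out when mice were compared one by one. They were chosen after their values were seen. A downstream start of Cpne4, a copine that binds membranes in response to calcium (chr9:104872532-104873168), read 2.08 CPM in C mouse 1, 2.53 in C mouse 2, 1.91 in K mouse 1, 1.82 in CK mouse 1 and 1.44 in CK mouse 5, and at most 0.16 CPM in the other 12 mice, all WT mice included. Its values fell into separate levels within C, K and CK, and the log2 fold change in CK did not pass (3.03, edgeR adjusted p = 0.164).

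A start of Nlrp1b, an inflammasome sensor (chr11:71230481-71231089), was lost in CK with a log2 fold change of -1.49 (edgeR adjusted p = 0.00118). It read 2.77, 2.61, 3.56 and 2.77 CPM among WT mice and 0.79, 0.92, 1.23, 1.44 and 0.81 among CK mice. The C mice read 1.09, 0.77, 2.48 and 1.17 CPM and the K mice 0.96, 2.72, 0.99 and 0.97, so that C mouse 3 and K mouse 2 lay near WT while the other mice of their genotypes lay near CK.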
